A study of Mus musculus with 9 samples.

Results

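In alphaTC1 cells, a mouse pancreatic alpha cell line, 881 regions of open chromatin were less open with an shRNA against Smndc1. With one against Atrx, their means were at least 0.85 of the empty vector mean, and above it in 33.9%. These regions were picked from 80827 by their own ATAC-seq counts, given as CPM, counts per M counts in the library's column. All 3 libraries with Smndc1 shRNA had to lie below all 3 with empty vector, with a mean of at most 0.67 of the empty vector mean. The mean with Atrx shRNA had to be at least 0.85 of the empty vector mean, and the mean of the 9 libraries at least 3 CPM. This last condition alone left 62242 regions, of which the 881 members are 1.42%. Since these values chose the members, the levels and ratios below describe them and were not tested. Only 3.29% of members lay at gene ends, against 19.8% of all regions of at least 3 CPM. Of the gene lists compared, synaptic and neural adhesion genes had the highest share of members, 3.86% of their regions against 1.42% of all. Over all regions of that list the median log2 ratio of Smndc1 shRNA to empty vector was -0.0142. No list was tested.

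The cells were transduced with Smndc1 shRNA, with Atrx shRNA or with the empty vector, and chromatin was taken 5 days later, 3 libraries per group. The labels call these individual biological replicates. They name a single Smndc1 shRNA, and alphaTC1 is a single immortal line, so each group is 1 hairpin or vector in 1 line as far as the labels go. Coordinates are on mm10 (GRCm38).

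ATAC-seq reads DNA that a transposase can reach. Open regions at gene starts are mostly promoters, often rich in CpG and open in many cell types, while those inside and between genes include enhancers, which differ more from one cell type to another. Smndc1 is a Tudor domain protein needed for spliceosome assembly. Atrx is a chromatin remodeler that, with Daxx, places a histone variant at repeats and telomeres. Alpha cells share with neurons much of the machinery of regulated secretion, from calcium channels to synaptotagmins.

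Library totals over all regions ran from 5.29 to 8.15 M counts. Of the alpha cell markers reported, the strongest gene-end region averaged 65.0 CPM at Pcsk2, 31.2 at Gcg, 29.2 at Irx1, 17.6 at Irx2 and 2.02 at Ttr. Of 6 beta cell markers, Mafa (51.2 CPM) and Nkx6-1 (48.7 CPM) had such a region and Ins1, Ins2, Pdx1 and Slc2a2 had none. Among markers of other cells, Sox9 had 56.2 CPM, Pdgfra 5.34 and Tek 3.25, with no gene-end region at the other 12. Accessibility is not expression, and a mixed population was not tested for. Replicate 3 of every group stood apart: the strongest 10% of regions held 39.0% to 39.3% of its counts, against 43.7% to 49.2% in the other 6 libraries.

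Few members met a gene start, and the sequences of those starts are shown because they are the promoters in question and because they differ among themselves. RefSeq (GRCm38.p6) gives windows from 250 bases before to 50 after each start, on all chromosomes met here except 18. Of the members, 24 overlapped such a window, 26 windows in all, of which 13 belong to coding genes. The 250 bases before the start follow for 7 of the coding genes, 5' to 3' along the gene. Capitals mark matches, on either strand, to the motifs named below, and neighbouring matches can run together.
Garnl3: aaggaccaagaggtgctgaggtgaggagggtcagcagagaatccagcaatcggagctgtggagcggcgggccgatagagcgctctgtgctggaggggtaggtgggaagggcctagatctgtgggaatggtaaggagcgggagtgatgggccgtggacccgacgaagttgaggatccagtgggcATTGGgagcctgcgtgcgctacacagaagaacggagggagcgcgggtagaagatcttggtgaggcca
Atf2: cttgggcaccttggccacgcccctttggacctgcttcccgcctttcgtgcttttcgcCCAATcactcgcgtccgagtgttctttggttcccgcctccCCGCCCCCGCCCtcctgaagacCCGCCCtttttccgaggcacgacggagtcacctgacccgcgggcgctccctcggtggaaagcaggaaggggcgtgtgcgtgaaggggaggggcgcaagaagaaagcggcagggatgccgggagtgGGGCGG
Uba3: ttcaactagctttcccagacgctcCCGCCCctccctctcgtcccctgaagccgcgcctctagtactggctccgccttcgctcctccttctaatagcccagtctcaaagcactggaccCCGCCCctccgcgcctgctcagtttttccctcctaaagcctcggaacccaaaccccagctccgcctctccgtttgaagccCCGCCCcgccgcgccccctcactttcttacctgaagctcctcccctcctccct
Fam50b: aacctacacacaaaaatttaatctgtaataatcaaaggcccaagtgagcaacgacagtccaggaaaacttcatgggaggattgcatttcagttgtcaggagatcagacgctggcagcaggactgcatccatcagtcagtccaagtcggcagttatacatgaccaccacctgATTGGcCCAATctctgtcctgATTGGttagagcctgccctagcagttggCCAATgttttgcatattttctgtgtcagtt
Nrxn3: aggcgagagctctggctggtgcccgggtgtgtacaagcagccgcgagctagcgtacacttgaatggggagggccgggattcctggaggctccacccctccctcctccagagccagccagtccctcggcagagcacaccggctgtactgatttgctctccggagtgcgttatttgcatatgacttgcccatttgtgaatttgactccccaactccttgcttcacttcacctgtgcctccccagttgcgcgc
Tgm5: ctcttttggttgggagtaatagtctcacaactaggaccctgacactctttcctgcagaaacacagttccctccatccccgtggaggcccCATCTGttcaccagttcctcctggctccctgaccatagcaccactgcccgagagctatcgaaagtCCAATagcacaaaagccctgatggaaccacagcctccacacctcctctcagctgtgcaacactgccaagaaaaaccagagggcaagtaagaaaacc
Sf3a3: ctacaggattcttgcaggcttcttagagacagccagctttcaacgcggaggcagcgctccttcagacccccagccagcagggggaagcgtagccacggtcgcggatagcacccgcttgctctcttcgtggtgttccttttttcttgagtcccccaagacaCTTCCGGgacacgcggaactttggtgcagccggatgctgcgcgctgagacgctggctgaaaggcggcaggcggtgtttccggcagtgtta

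They lie at chr2:33131437-33131686 on the minus strand (Garnl3), chr2:73892640-73892889 on the minus strand (Atf2), chr6:97205648-97205897 on the minus strand (Uba3), chr13:34734600-34734849 on the plus strand (Fam50b), chr12:89812233-89812482 on the plus strand (Nrxn3), chr2:121085842-121086091 on the minus strand (Tgm5) and chr4:124714611-124714860 on the plus strand (Sf3a3).

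Garnl3 and Atf2 were the strongest. At Garnl3, which encodes a GTPase-activating domain protein, CPM was 48.8, 40.2 and 41.4 with Smndc1 shRNA, 61.2, 62.9 and 50.4 with Atrx shRNA, and 64.5, 79.6 and 57.3 with empty vector. At Atf2, a bZIP transcription factor, it was 45.2, 38.6 and 34.0 with Smndc1 shRNA, 69.3, 51.6 and 52.2 with Atrx shRNA, and 70.0, 67.2 and 49.1 with empty vector. Both windows are rich in CpG, with 15 at Garnl3 and 28 at Atf2 in 300 bases, and the gap between the Smndc1 shRNA and empty vector libraries is narrow in both. Uba3, a subunit of the enzyme that activates NEDD8, had a ratio of the Smndc1 shRNA to the empty vector mean of 0.606. Its libraries were spread more widely, at 38.2, 30.4 and 18.7 CPM with Smndc1 shRNA, 56, 36.7 and 39.0 with Atrx shRNA, and 48.9, 55.9 and 39.1 with empty vector.

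Sf3a3, a subunit of the spliceosomal SF3A complex, had 13.8, 14.2 and 10.9 CPM with Smndc1 shRNA, 19.4, 16.6 and 17.2 with Atrx shRNA, and 18.8, 19.4 and 19.9 with empty vector. Its ratio of 0.668 lay just inside the limit. Fam50b had 11.7, 21.1 and 11.1 CPM with Smndc1 shRNA, 27.3, 26.1 and 25 with Atrx shRNA, and 23.3, 22.6 and 25.2 with empty vector. Here 1 Smndc1 shRNA library was close to the empty vector ones. The start met in Nrxn3, which encodes a presynaptic neurexin, lies inside the gene's bounds, and the member there had a ratio of 0.625. Tgm5, a transglutaminase, had a ratio of 0.604.

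The windows met by members held less CpG than those of open chromatin at large. Of the 26, 34.6% had at least 10 CpG, against 85.4% of 12226 windows met by any region of at least 3 CPM and 43.5% of all windows. The median was 5 CpG in the members' windows, 22 in open windows and 7 in all. Of the 26 windows, 50% belonged to coding genes, against 84.8% of open windows. Members that met a window were weaker, with a median mean level of 14.7 CPM against 33.7 CPM for all regions that met one. The windows compared here and below were not matched for level.

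Matches to short motifs in the 300 bases, on both strands, describe letters only, and no motif contains another. The Sp1 motif GGGCGG was in 15.4% of the 26 windows, against 65.8% of open windows and 35.7% of all. The ETS motif CCGGAAG was in 3.85% of them, the Sf3a3 window alone, against 18.4% of open windows and 8.86% of all. The E-box CAGATG of bHLH factors was in 38.5%, against 11.1% of open windows and 17.2% of all. The NF-Y motif CCAAT was in 46.2%, against 38.4% of open windows and 37.4% of all, and the Fam50b window holds 4 matches. The AP-1 motif TGANTCA was in 15.4%, against 4.77% of open windows and 7.81% of all. The TATA box TATAAA was in 15.4% too, against 6.05% of open windows and 13.6% of all.

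Other motifs were rare in the 26 windows. The piece TGACGTC of the CRE was in 1 window (3.85%), against 5.91% of open windows and 3.21% of all. The forkhead motif TGTTTAC was in 1 as well, against 2.83% of open windows and 3.65% of all. The homeobox motif TAATTA was in 1, against 2.1% of open windows and 5.29% of all. The NRF1 piece GCGCATG was in 0, against 7.48% of open windows and 3.91% of all. The GATA motif AGATAAG was in 0, against 1.46% of open windows and 3.04% of all. The YY1 piece GATGGCG was in 0, against 6.81% of open windows and 3.49% of all.

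One member holds a microRNA hairpin, out of 98 hairpins of 1005 that lie in any region of at least 3 CPM. It is Mir344e on the minus strand of chromosome 7, inside the region chr7:61735406-61735982, whose nearest coding gene is Ndn, 612 kb away. The mature sequences follow, with the seed (bases 2 to 8) in capitals.
mmu-miR-344e-3p: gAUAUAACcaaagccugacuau
mmu-miR-344e-5p: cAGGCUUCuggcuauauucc

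This region had 2.40, 2.21 and 2.59 CPM with Smndc1 shRNA, 2.92, 4.54 and 7.45 with Atrx shRNA, and 6.41, 4.67 and 3.09 with empty vector. The Smndc1 shRNA libraries are alike, the Atrx shRNA and empty vector ones overlap widely, and the level is near the lower limit. Accessibility says nothing of the microRNA itself, which was not measured.

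Over all members, the median CPM in a library was 5.84, 5.20 and 5.73 with Smndc1 shRNA, 8.62, 9.64 and 10.1 with Atrx shRNA, and 9.48, 9.33 and 9.78 with empty vector. Together the members held 0.686 ± 0.00985% of a library's counts in the Smndc1 shRNA group, 1.13 ± 0.0153% in the Atrx shRNA group and 1.16 ± 0.0208% in the empty vector group (SD, n = 3 libraries each). The drop was moderate in most: the ratio of the Smndc1 shRNA to the empty vector mean ran from 0.291 to 0.67 with a median of 0.6 (log2 -0.737). It was at most 0.6 in 440 members (49.9%), at most 0.5 in 100 (11.4%) and at most 0.4 in 23 (2.61%).

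**Figure D1:**
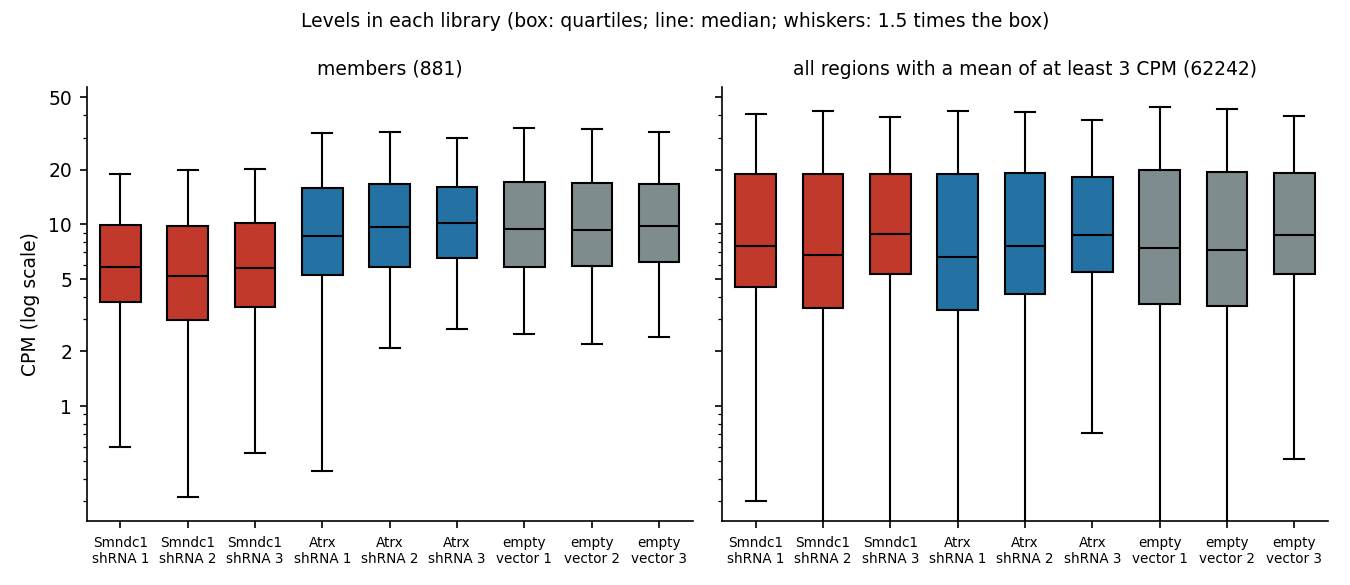
CPM (log scale) in each of the 9 libraries for the 881 members and for all 62242 regions with a mean of at least 3 CPM; boxes are quartiles with the median as a line, and whiskers reach up to 1.5 times the box, some of them below the axis. The members' medians are 5.20 to 5.84 in the Smndc1 shRNA libraries, 8.62 to 10.1 in the Atrx shRNA ones and 9.33 to 9.78 in the empty vector ones.

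Counts per member were low, with a median of 35 in a Smndc1 shRNA library, 56 in an Atrx shRNA library and 66 in an empty vector library. The groups often came close. The lowest empty vector library was a median of 1.21 times the highest Smndc1 shRNA library, at least 1.5 times in 80 members (9.08%) and under 1.1 times in 209 (23.7%). Of all regions of at least 3 CPM, 8.48% had all Smndc1 shRNA libraries below all empty vector ones, and 6.01% had a mean of at most 0.67. The rule used both, so nothing is read from these shares.

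With Atrx shRNA, members were at most a little below the empty vector level, as the rule required. The ratio of the Atrx shRNA to the empty vector mean had a median of 0.949 and ran from 0.85 to 1.82. It lay from 0.85 to 0.95 in 444 members (50.4%), from 0.95 to 1.1 in 296 (33.6%), from 1.1 to 1.3 in 112 (12.7%) and above that in 29. The lower side is therefore crowded against the limit. All 3 Atrx shRNA libraries were above all 3 empty vector libraries in 25 members, where 4.98% of all regions were, and below them in 18, where 7.38% of all regions were. In 627 members (71.2%) all 3 Smndc1 shRNA libraries were also below all 3 Atrx shRNA libraries, as in 5.64% of all regions. That contrast shares the Smndc1 shRNA libraries with the rule.

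**Figure D2:**
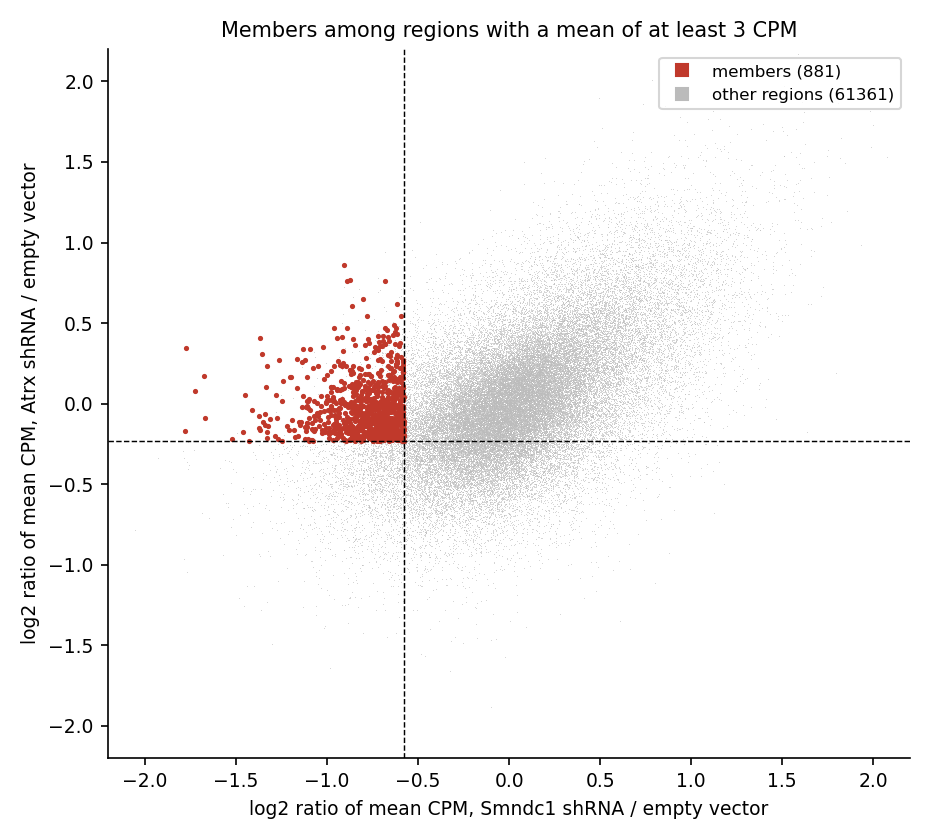
Each point is a region with a mean of at least 3 CPM: across, the log2 ratio of the Smndc1 shRNA to the empty vector mean; up, that of the Atrx shRNA to the empty vector mean. Dashed lines are the limits of 0.67 and 0.85; the 881 members (red) crowd towards both, and 29 of them have an Atrx shRNA ratio of at least 1.3.

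The highest ratio of Atrx shRNA to empty vector, 1.82, was at chr16:48367969-48368656, 48.5 kb from Dppa2, a gene of early embryos and germ cells. It had 8.09, 6.30 and 8.50 CPM with Smndc1 shRNA, 23.8, 24.2 and 30.0 with Atrx shRNA, and 11.3, 17.1 and 14.6 with empty vector. The 3 groups do not overlap. A second member 7.32 kb from Dppa2 had ratios of 0.651 with Smndc1 shRNA and 1.39 with Atrx shRNA. This gene was named after its values were seen.

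In edgeR's quasi-likelihood fit over all 80345 regions that passed its filter on low counts, with Benjamini-Hochberg adjustment at 0.05, 29 members were called lower with Smndc1 shRNA than with empty vector, where 0.136% of all regions were. Leaving out 1 library gave 0 members called (without empty vector replicate 1) to 125 (without empty vector replicate 3). With trended offsets, which even out the libraries' contrast between strong and weak regions, 167 members were called lower, where 0.717% of all regions were. Against Atrx shRNA, 32 members were called lower, where 0.0535% of all regions were. With trended offsets 162 members were, where 0.387% of all regions were. All 881 members passed the filter, and the rule used these contrasts, so the calls mark members and support nothing further. Between Atrx shRNA and empty vector, the rule's lower limit on the ratio left members little room to be called lower, so those counts test nothing. With TMM scaling, edgeR called 0 members lower and 0 higher, where 0.0% of all regions were called either way. At an unadjusted p under 0.05 these counts were 0 and 3. DESeq2 called 0 members lower and 0 higher, and its calls over all regions are not given here. With trended offsets in edgeR the calls were 0 lower, where 0.0734% of all regions were, and 1 higher, where 0.195% of all regions were. At an unadjusted p under 0.05 they were 0 and 10. For neither fit was the share of all regions under that unadjusted limit counted, so these numbers cannot be set against it.

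The 29 members called with TMM scaling lay between genes (15), in gene bodies (13) and at a gene end (1). Among them were Heyl, a basic helix-loop-helix transcription factor, and Jag2, a ligand of Notch receptors. In the body of Heyl, CPM was 10.9, 10.9 and 12.2 with Smndc1 shRNA, 22.5, 25.9 and 21.5 with Atrx shRNA, and 26.1, 25 and 24.5 with empty vector. The libraries within each group were close there. In the body of Jag2 the values were 7.19, 3.46 and 11.6 with Smndc1 shRNA, 15.1, 17.6 and 14.9 with Atrx shRNA, and 17.3, 14.0 and 17 with empty vector, a much wider spread with Smndc1 shRNA. The others of note by role were regions by Etv6 (an ETS family repressor), Ghrhr (the receptor of growth hormone releasing hormone), Sod3 (extracellular superoxide dismutase) and Stxbp5l (a brake on vesicle fusion). Heyl, Jag2, Etv6, Ghrhr, Sod3 and Stxbp5l were named after their values were seen.

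At gene ends, Ccn3 had the lowest ratio, 0.4. The region lies 0.202 kb outside the bounds of Ccn3, which encodes a secreted matricellular protein, at chr15:54753964-54754619. It had 6.14, 5.67 and 5.17 CPM with Smndc1 shRNA, 12.6, 12.5 and 13.5 with Atrx shRNA, and 15.1, 13.5 and 13.9 with empty vector. No Smndc1 shRNA library came near the others. Mical1, which encodes an enzyme that oxidises actin, came next, with 2.85, 2.21 and 3.33 CPM with Smndc1 shRNA, 8.33, 6.43 and 7.81 with Atrx shRNA, and 5.44, 5.89 and 6.52 with empty vector. Here the Atrx shRNA mean was 1.26 times the empty vector mean. The next 10 gene-end members had ratios of 0.524 to 0.599. They included Apof (an apolipoprotein), 4930583I09Rik, Ndufa8 (a respiratory complex subunit), Vwa5b1, Olfr898 (an olfactory receptor), Slc33a1 (an acetyl-CoA transporter), Trp53bp2 (a p53 binding protein), Kiss1 (kisspeptin) and Angel1.

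In gene bodies, Lgr4 held the lowest ratio and another of the 10 lowest. Lgr4 is a receptor for R-spondins, which strengthen Wnt signalling. At chr2:110012034-110012616 CPM was 1.20, 2.05 and 1.11 with Smndc1 shRNA, 6.28, 6.62 and 6.03 with Atrx shRNA, and 4.60, 5.16 and 5.15 with empty vector. At chr2:109960165-109960763 it was 4.34, 4.57 and 3.33 with Smndc1 shRNA, 8.18, 11.3 and 9.05 with Atrx shRNA, and 12, 10.8 and 8.92 with empty vector. Their ratios were 0.292 and 0.386, and the first had the higher mean with Atrx shRNA and the second with empty vector. No other member lay in a gene of the Wnt list.

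Syt9, a calcium sensor of vesicle release, had a body region with 1.95, 1.73 and 1.29 CPM with Smndc1 shRNA, 5.70, 4.54 and 7.10 with Atrx shRNA, and 5.99, 4.42 and 6.01 with empty vector. Nrcam, a neuronal adhesion protein, had 4.64, 4.09 and 4.80 with Smndc1 shRNA, 10.4, 11.3 and 9.40 with Atrx shRNA, and 10.7, 12.9 and 12.9 with empty vector. In both regions, all Smndc1 shRNA libraries lay below the other 6. Ankrd11, a chromatin regulator, had a ratio of 0.313, but its libraries were less even: 0.599, 0.787 and 2.22 with Smndc1 shRNA, 4.24, 3.78 and 4.97 with Atrx shRNA, and 4.60, 2.46 and 4.46 with empty vector. The other 5 of the lowest 10, with ratios of 0.387 to 0.403, were in 2210408I21Rik, Dtd1 (which clears D-amino acids from tRNA), Gng2 (a G protein subunit), Map1b (a microtubule protein) and Asxl3 (a polycomb group relative).

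Between genes, the lowest ratio of all members, 0.291, was at chr2:123194517-123195017, 385 kb from Sqor. It had 1.05, 1.42 and 1.85 CPM with Smndc1 shRNA, 4.97, 3.78 and 4.44 with Atrx shRNA, and 5.44, 5.77 and 3.60 with empty vector. These are 7, 9 and 10 counts with Smndc1 shRNA, 34, 20 and 25 with Atrx shRNA, and 39, 47 and 21 with empty vector, so counting error is wide. St6galnac3, a sialyltransferase gene, had a member 48.9 kb away with a ratio of 0.363 and another in its body with 0.636. The other 4 of the lowest 6 were by Plod2 (a collagen lysine hydroxylase, 0.314) and near Zranb2 (0.349), Krr1 (0.366) and Dcc (a netrin receptor, 0.376).

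**Figure D3:**
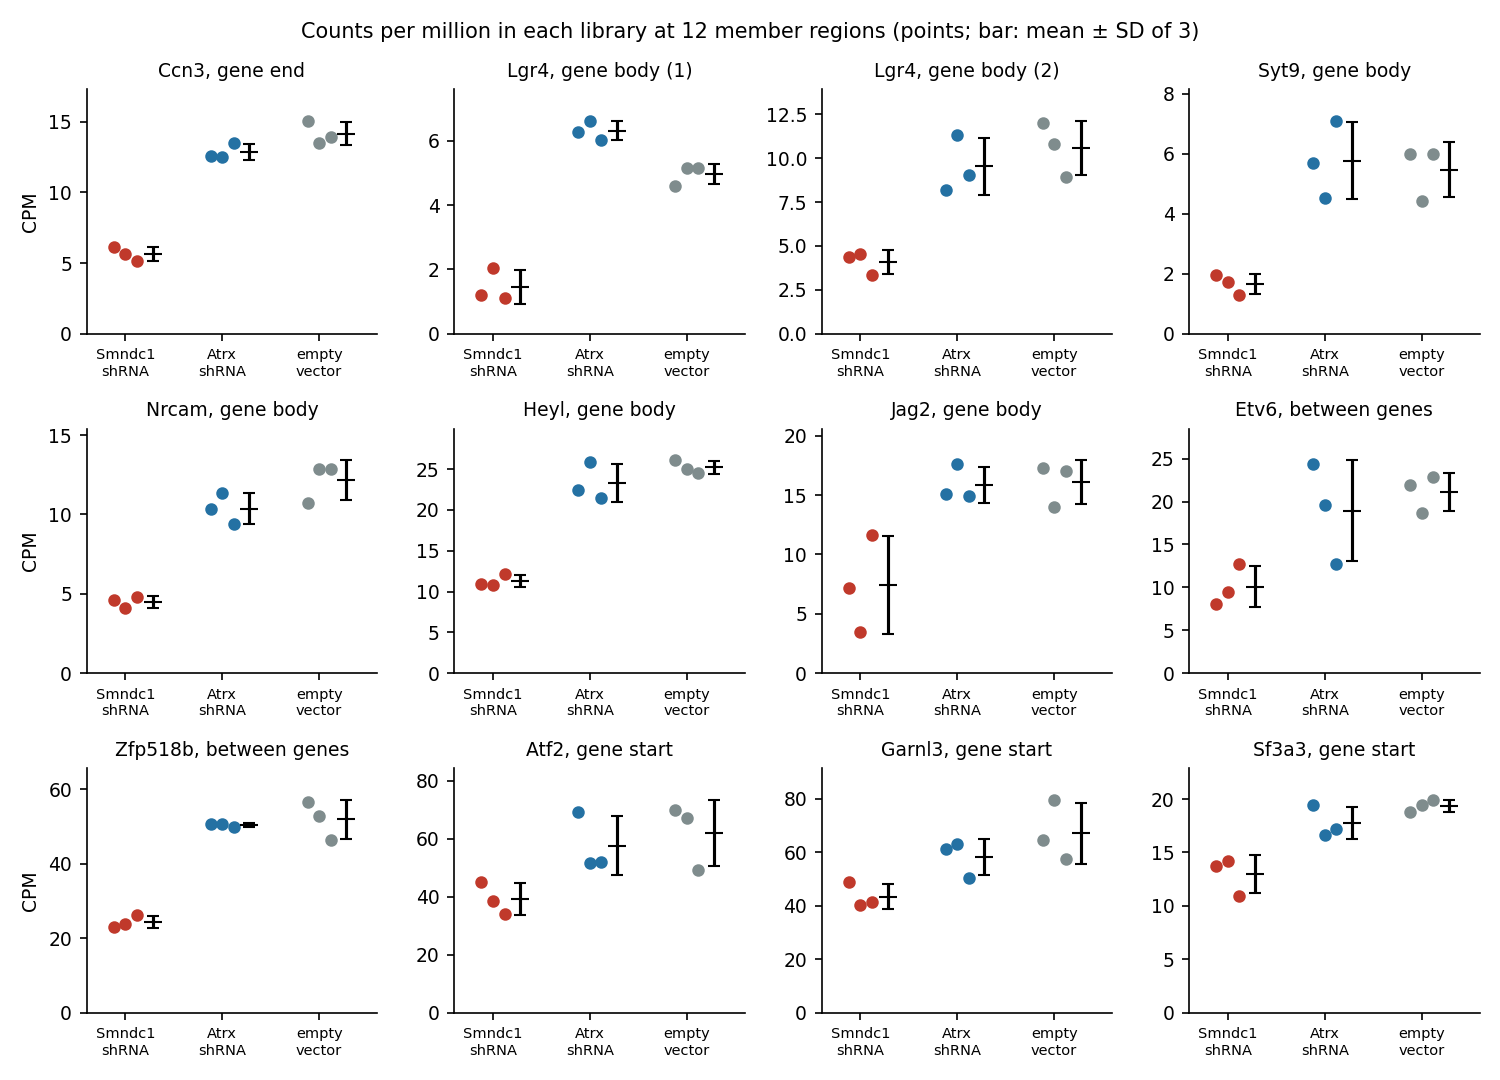
CPM in each library (points) and mean ± SD of 3 (bars) at 12 members, by group. The Smndc1 shRNA points lie below all empty vector points in each panel, as the rule required, with a wide gap at Ccn3, Heyl and Zfp518b and a narrow one at Garnl3, Atf2 and Jag2.

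The 8 strongest members had mean levels of 51.3 to 59.4 CPM and ratios of 0.565 to 0.647. The strongest lay between genes, 65.2 kb from Ankfn1, with 36.7, 50.5 and 34.0 CPM with Smndc1 shRNA, 69.7, 68.8 and 60.3 with Atrx shRNA, and 69.1, 69.7 and 75.7 with empty vector. Others were Fam178b, Garnl3, Ptprt (a receptor tyrosine phosphatase), near Bod1, Atf2 and Sult2a5. Lower in level, at a mean of 42.2 CPM, a region 31.8 kb from the zinc finger gene Zfp518b had 23.1, 23.8 and 26.2 CPM with Smndc1 shRNA, 50.7, 50.7 and 49.9 with Atrx shRNA, and 56.6, 52.8 and 46.3 with empty vector. Its Smndc1 shRNA libraries were at about the same level, all far under the other 6.

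Members were seldom at gene ends. A gene-end region is here one that touches the stretch reaching 1000 bp out of and 500 bp into a coding gene at either of its bounds, and the bounds do not say which end is the start. Of the members, 29 (3.29%) were at gene ends, 411 (46.7%) in gene bodies and 441 (50.1%) between genes, against 19.8%, 41.6% and 38.7% of all regions of at least 3 CPM. In other words, 0.236% of gene-end regions were members, against 1.59% of gene-body regions and 1.83% of those between genes. The place of a region was not used by the rule, and these shares were not tested.

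Gene-end regions were stronger, with a median of 28.9 CPM over all of them against 6.62 in bodies and 5.79 between genes. Within classes of level, the share at gene ends was 2.43% of members against 4.49% of all regions at 3 to 5 CPM, and 3.13% against 8.15% at 5 to 10 CPM. At 10 to 20 CPM it was 2.85% against 19.6%, and at 20 to 40 CPM 4.3% against 45.6%. From 40 CPM up it was 17.6% (3 of 17 members) against 66.0%. At most 10 members in any class were at gene ends, and the differences were not tested.

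**Figure D4:**
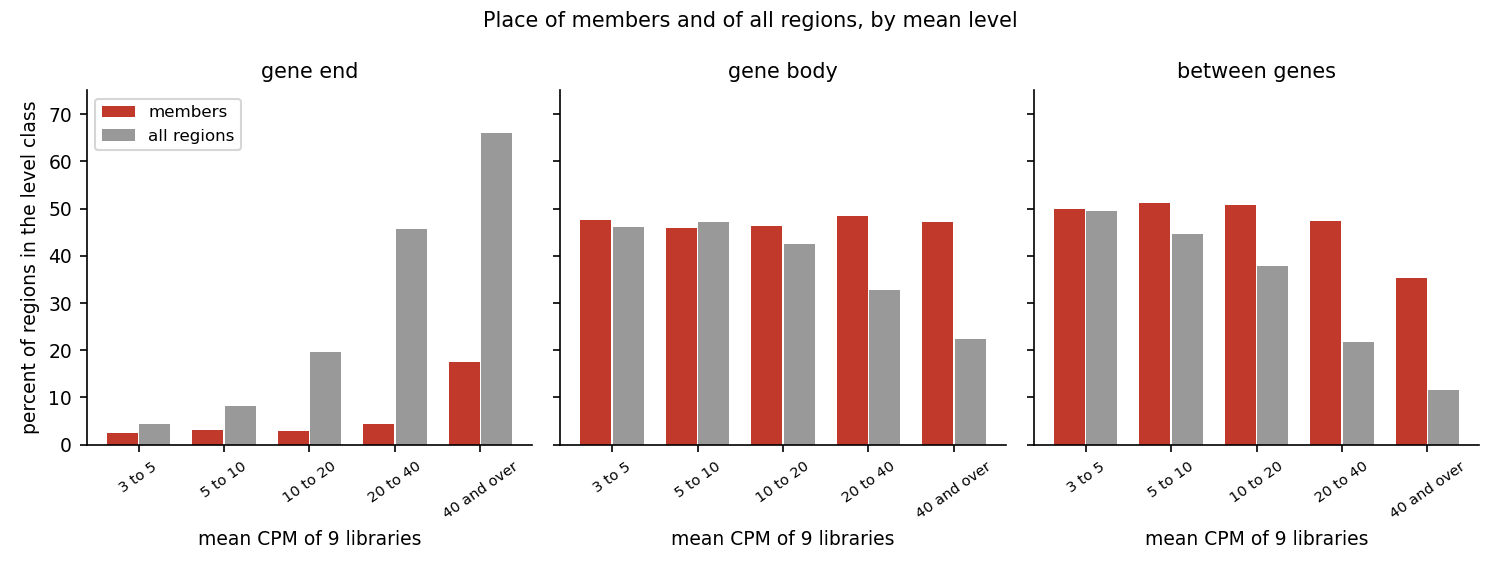
Percent of members (red) and of all regions of at least 3 CPM (grey) at gene ends, in gene bodies and between genes, within classes of mean CPM. Among all regions the gene-end share climbs with level to 66.0%, while among members it is 2.43% to 4.3% below 40 CPM.

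The lower tail of the ratio, from which the rule takes its members, differed by place. At 20 to 40 CPM, the lowest 5% of log2 ratios of Smndc1 shRNA to empty vector began at -0.342 at gene ends, -0.523 in bodies and -0.57 between genes. The highest 5% began at 0.356, 0.419 and 0.362 in the same order. The median SD over mean of the 3 empty vector libraries was 0.127, 0.121 and 0.119 in the same 3 places, so replicates were about as close in each. The part of either in the place of members was not tested.

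The same rule with directions or shRNAs exchanged also found few gene ends. They made up 7.8% of 372 regions more open with Smndc1 shRNA only, 10.1% of 454 less open with Atrx shRNA only and 5.24% of 248 more open with Atrx shRNA only. All are below the 19.8% of all regions. The sets share libraries, and their differences were not tested. Regions less open with both shRNAs numbered 404. Of 2389 regions that met the Smndc1 shRNA conditions whatever Atrx shRNA did, 1508 had an Atrx shRNA ratio under 0.85.

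Distance to the nearest RefSeq start tells the same of the 851 members off chromosome 18. The median was 32.8 kb, against 16.4 kb for all 60500 regions there. A start lay within 1 kb of 34 members (4.0%) against 19.1% of all regions, and further than 100 kb from 167 (19.6%) against 12.5%. Promoter windows were met by 2.82% of these members and by 15.8% of all regions. No coding gene lay within 50 kb of 212 of the 881 members (24.1%), against 14.9% of all regions.

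**Figure D5:**
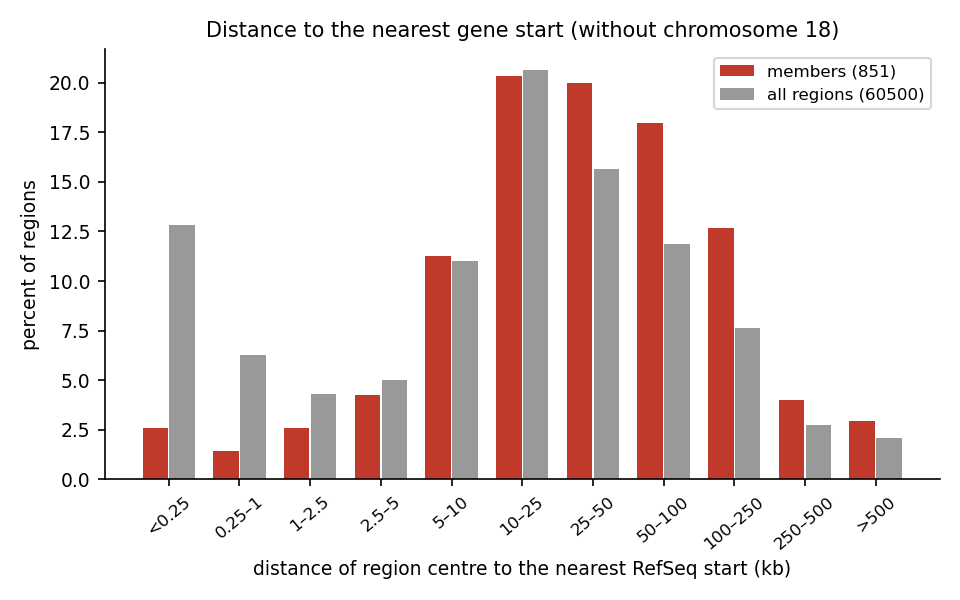
Distance from the centre of a region to the nearest RefSeq gene start, as percent of 851 members (red) and of 60500 regions of at least 3 CPM (grey), without chromosome 18. Members are under-represented below 1 kb and more frequent than all regions from 25 kb on.

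Members had a median width of 617 bp, against 579 bp for all regions, and 20.8% against 39.7% had the minimum width of 501 bp. Within level classes the order of the medians varied. They were 501 bp for members and for all regions at 3 to 5 CPM, 607 against 568 bp at 5 to 10, 681.5 against 693 bp at 10 to 20, 711 against 751 bp at 20 to 40 and 701 against 804 bp from 40 CPM up. Members were most frequent at middle levels. They made up 1.01% of regions at 3 to 5 CPM, 1.95% at 5 to 10, 2.31% at 10 to 20, 1.06% at 20 to 40 and 0.283% from 40 CPM up.

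Chromosomes differed in their share of members. It was highest on chromosome 13 (45 of 1582 regions, 2.84%) and lowest on chromosome 11 (29 of 6615, 0.438%) and chromosome 5 (53 of 5701, 0.93%). Chromosome 11 as a whole held 12.3 ± 0.458% of counts in the Smndc1 shRNA group, 11.9 ± 0.42% in the Atrx shRNA group and 11.5 ± 0.533% in the empty vector group (SD, n = 3 libraries each). The libraries overlapped, at 11.95, 12.11 and 12.81% with Smndc1 shRNA and 11.15, 11.34 and 12.15% with empty vector. Replicate 3 was the highest in every group. The median log2 ratio of Smndc1 shRNA to empty vector was 0.145 on chromosome 11, 0.0771 on chromosome 5 and -0.131 on X. When each library's share of a chromosome was set to the mean share of the 9, 869 regions met the rule, 770 of them members. Chromosome 14 then had the highest share, 28 of 1225 regions (2.29%), while chromosome 13 had 30 (1.9%) and chromosome 11 had 52 (0.786%). This scaling was chosen after the data were seen. The source of these differences in whole chromosomes was not tested.

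By gene, members were spread thinly, and 669 of the 881 could be assigned to a coding gene, in its body or within 50 kb. Only 6 genes had 3 or more. Slc24a2, a sodium, potassium and calcium exchanger, had 4 of its 21 regions of at least 3 CPM, all in its body, with ratios of 0.549 to 0.618. Its strongest had 5.99, 9.29 and 8.50 CPM with Smndc1 shRNA, 15.9, 16.1 and 17.7 with Atrx shRNA, and 11.7, 16.3 and 15.3 with empty vector. Over all 21 the median log2 ratio was 0.0011, close to the empty vector level. Ehf, an epithelial ETS factor, had 3 of 12, all outside its body, and here 9 of 12 regions were below the empty vector level, with a median log2 ratio of -0.455 with Smndc1 shRNA and -0.0653 with Atrx shRNA. Ntm, a neuronal adhesion protein, had 3 of 19 (median log2 ratio of all 19 -0.239), Gramd1b, a sterol transporter, 3 of 10, Dscam, an adhesion receptor, 3 of 29, and Pde4d, a cAMP phosphodiesterase, 3 of 24.

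Gene lists were compared by the share of their regions that were members, beside the 1.42% of all regions of at least 3 CPM. No list was tested. The highest share was in synaptic and neural adhesion, with 24 of 621 regions (3.86%) in 16 genes. Among its lowest ratios were Nrcam, already given, Il1rapl1 (a synapse organiser) with 0.412 and Cntnap4 (a contactin partner) with 0.494. Il1rapl1 had 3, 1.42 and 4.80 CPM with Smndc1 shRNA, 7.45, 9.26 and 6.57 with Atrx shRNA, and 6.27, 9.09 and 7.04 with empty vector. Ntm, Dscam and Nrxn3 also belong to it, as do Astn1, Cntn1, Cntnap2, Csmd3, Lsamp, Magi1, Magi2, Negr1, Nlgn1 and Tenm4. The median log2 ratio of all 621 regions was -0.0142 with Smndc1 shRNA and -0.0311 with Atrx shRNA, so the list as a whole was near the empty vector level.

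The genes that hold gene-body members had a median length of 155 kb, against 99.2 kb for those that hold any gene-body region. Genes over 500 kb held 15.8% of gene-body members and 9.12% of gene-body regions. Gene length was not compared between lists.

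Exocytosis and granule genes had 9 members of 299 regions (3.01%), in Cadps2, Pam, Pclo, Ptprn2, Rab3c, Stxbp5l, Sv2b and Syt9. Pam, the enzyme that amidates peptide hormones, held 2 members 8.80 kb from end to end. The member with the lower ratio had 2.55, 1.89 and 1.29 CPM with Smndc1 shRNA, 3.51, 3.78 and 4.26 with Atrx shRNA, and 2.79, 3.56 and 5.15 with empty vector. Ptprn2, a dense core granule protein, had a ratio of 0.498. Its libraries overlapped between shRNAs, at 4.34, 2.36 and 3.88 CPM with Smndc1 shRNA, 3.21, 10.2 and 5.68 with Atrx shRNA, and 6.41, 8.84 and 6.01 with empty vector.

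Axon guidance had 12 of 531 (2.26%), led by Sema6d (0.423), Efna5 (0.459) and Sema3e (0.551), all guidance cues. At Sema6d the values were 3.60, 2.68 and 2.96 CPM with Smndc1 shRNA, 7.45, 7.37 and 9.23 with Atrx shRNA, and 7.25, 7.86 and 6.69 with empty vector. Neurotransmitter receptors had 6 of 263 (2.28%), with Grik4, Grik1 and Adra1d lowest. Extracellular matrix had 14 of 695 (2.01%), with Ccn3, Itgbl1 (0.462) and Adamts12 (0.508).

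Voltage-gated and leak channels had 16 of 938 (1.71%), not far from the share of all regions. Cacna2d1, a calcium channel subunit, had 10.9, 11.2 and 11.6 CPM with Smndc1 shRNA, 16.8, 18.3 and 20.6 with Atrx shRNA, and 20.5, 22.7 and 20.8 with empty vector. Nalcn, the sodium leak channel, had 12.9, 10.1 and 8.68 with Smndc1 shRNA, 22.8, 23.1 and 11.9 with Atrx shRNA, and 19, 23 and 16.5 with empty vector. The Cacna2d1 groups are each tight, while 1 Atrx shRNA library at Nalcn was at the Smndc1 shRNA level. Signalling by cAMP and calcium had 14 of 821 (1.71%), with Plcb1, Pde4d and Pde3a lowest, solute carriers 18 of 1212 (1.49%), among them Slc38a1 and Slc6a12, and cytoskeleton and motors 13 of 838 (1.55%), with Map1b, Dync1i1 and Kif16b.

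The alpha and beta cell identity lists had 1 member each, beside the 1.42% of all regions. The alpha cell list had 1 of 80 regions (1.25%), in Ttr, a transthyretin gene strongly expressed in alpha cells. That region had 2.85, 2.68 and 3.88 CPM with Smndc1 shRNA, 1.46, 4.72 and 7.45 with Atrx shRNA, and 5.44, 4.30 and 4.63 with empty vector, and its Atrx shRNA libraries span those of both other groups. The beta cell list had 1 of 52 (1.92%), in Abcc8, a subunit of the potassium channel that closes with ATP, with 6.59, 8.82 and 8.31 CPM with Smndc1 shRNA, 15.2, 10.6 and 13.7 with Atrx shRNA, and 14.4, 10.6 and 17.7 with empty vector. No member was assigned to Gcg, Irx1, Irx2, Pcsk2, Ins1, Ins2, Pdx1, Mafa, Nkx6-1 or Slc2a2.

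Endocrine transcription factors had 4 of 249 (1.61%), in or by Sox4, Rfx6, Zbtb20 and St18. By Sox4, an HMG box factor of islet development, CPM was 11.4, 7.87 and 9.42 with Smndc1 shRNA, 19.3, 18 and 16.1 with Atrx shRNA, and 20.8, 17.8 and 16 with empty vector. In Zbtb20, a zinc finger repressor of islets and liver, it was 17.8, 18.4 and 19 with Smndc1 shRNA, 29.2, 32.3 and 30.5 with Atrx shRNA, and 31.1, 28.7 and 29.7 with empty vector. Both are set clearly apart from the other 6 libraries. The member 8.01 kb from Rfx6, which is needed to form islet cells, had a ratio of 0.56.

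Splicing factors had 5 of 371 (1.35%): Khdrbs2 (0.463), Celf5 (0.573), Celf2 (0.625), Khdrbs3 and Sf3a3. Khdrbs2, an RNA-binding protein of neurons, had 2.55, 2.21 and 4.25 CPM with Smndc1 shRNA, 9.79, 4.16 and 5.68 with Atrx shRNA, and 6.27, 7.49 and 5.66 with empty vector. Chromatin remodelers and modifiers had 5 of 450 (1.11%), with Ep300, Chd1 and Hdac7 lowest. The zinc finger list had 9 of 1132 (0.795%), with Zfp322a, Zfp407 and Zfp518b lowest, and the Wnt list 2 of 268 (0.746%). Acvr2a was the member of the TGF-beta and BMP list (1 of 186) and Olfr898 that of the olfactory and taste receptors (1 of 163). Nuclear receptors (225 regions), keratins and claudins (173) and the Bcl2 family (53) had none.

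The other lists reported had shares of 0.694% to 1.47%. The list of G protein-coupled receptors and their regulators had 7 of 477, among them the G protein subunit Gng2 and the receptor Adgrg2. The forkhead, homeobox and HMG box list had 7 of 708, among them Paxip1 and Msx1. The list of receptor tyrosine kinase, MAPK and PI3K genes had 8 of 773, with Mapkapk2, Mapk8ip1 and Map4k4. At Paxip1, a chromatin protein of the DNA damage response, CPM was 15.7, 25 and 24.6 with Smndc1 shRNA, 44.6, 40.8 and 33.4 with Atrx shRNA, and 49.8, 42.6 and 46.7 with empty vector. All Smndc1 shRNA libraries lay below the other 6, and the Atrx shRNA and empty vector libraries overlapped. Ubiquitin ligases and proteases had 11 of 1187, with Asb15, Usp13 and Usp3, and RNA helicases and translation 6 of 704, with Mrps33, Dhx15 and Mrpl40. The cadherin and protocadherin list had 4 of 375, with Dchs2, Cdh10 and Ctnnbl1, the last of which is not itself a cadherin. The cell cycle list had 4 of 495, with E2f6, Cdc42bpa and Cdk14, the immediate early list Atf2 and Atf7 (of 140 regions), and the lipid list Elovl6 and Acaca (of 157). Pdia3 (unfolded protein response, 1 of 75), Ddb2 (p53 targets, 1 of 85) and Wwox (telomere and DNA repair, 1 of 144) were the members of their lists.

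At the limits of the rule, members and others differed by little. The ratio of Smndc1 shRNA to empty vector was 0.67 in Pakap and near Fmr1, just inside, and 0.67 near Glul and 0.6702 near Nyap2, just outside. For the ratio of Atrx shRNA to empty vector, Reep3 (0.8502) and Ano6 (0.8504) were in, and near Stpg2 (0.8499) and Bub1b (0.8498) out. For the mean level, Pde4d (3.003 CPM) and near Tac1 (3.019) were in, and Dse (2.976) and Aqp3 (2.973) out. For the gap between groups, Cpvl and Msi2 were in, with a lowest empty vector library 1.0 and 1.002 times the highest Smndc1 shRNA library, and Ralgds (0.9997) and Ppp1r1c (0.999) out.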

How the data were processed

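ATAC-seq counts of 80827 regions in 9 libraries were analysed. Per the labels' protocols, libraries were sequenced as 75 bp pairs. The authors deposited raw counts per region and the regions' coordinates. The submitters' processing notes name mm10, MACS2 2.2.7.1, Bowtie2 2.4.4, bedtools 2.27.1, deepTools 3.5.1 and SAMtools 2.8.0. How regions were merged and what unit was counted is not given in the sources used here. The table's columns all match a sample (0 left over).

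Counts were divided by column totals and the rule applied. edgeR 4.0.16 (R 4.3.3; quasi-likelihood, TMM, filterByExpr with a minimum count of 10, all 9 libraries, group as the only term) and DESeq2 1.42.0 gave calls. Places came from RefSeq GRCm38.p6 with Python 3.11.15 and pandas 2.3.3. Members named are the lowest ratios in each place (12, 10 and 6), the 8 strongest, up to 3 of each of 35 gene lists and genes with 3 or more. The members and lists were chosen with earlier results of these data known. Some of the named genes and lists are not reported here.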

Additional observations from a re-analysis of the deposited data

How the results depend on the processing

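The number of members depends on the limits: 100 with a Smndc1 shRNA ratio of at most 0.5, and 437 with an Atrx shRNA ratio of at least 0.95. Leaving out 1 library gave 791 to 1966, with 1966 without Smndc1 shRNA replicate 3 and 1464 without replicate 1. Without replicate 3 of every group it was 1525. With TMM it was 1009 (786 shared) and with trended offsets 959 (628 shared). Under both scalings 601 members (68.2%) met the rule, and 215 (24.4%) did whichever library was left out. Of the 202 that met it under all of these, 7 (3.47%) were at gene ends.

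Members called lower by edgeR were 29, among 109 of all regions. The counts were 8 members among 24 regions at an adjusted p under 0.01, 167 among 576 with trended offsets, 19 among 82 with DESeq2 size factors and 47 among 167 with 6 libraries. With a mean count of at least 50 they were 93 of the 459 members tested, among 218 regions called, and by DESeq2 6 of the 744 members tested, among 17. Leaving out 1 library gave 0 to 125. Of the empty vector libraries, leaving out replicate 1 gave 0 (0 of all regions called). There 534 members had an unadjusted p under 0.05 by edgeR, and the share of all regions was not counted. Leaving out replicate 2 of that group gave 1 (11) and replicate 3 gave 125 (405). Smndc1 shRNA replicate 1 gave 2, and Atrx shRNA replicates 2 and 3 gave 19 and 67. With the replicate block it was 314 among 961 regions called. Taken as departures from the mean of their own group, same-numbered libraries correlated at 0.0255 to 0.478, and at 0.408 to 0.478 for replicate 3. By the same measure, differently numbered libraries of 2 groups correlated at -0.435 to 0.368. These values do not compare the levels themselves. The labels do not say that a number pairs libraries, so the block was kept as an alternative. The cause of these changes was not tested.

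The share of members at gene ends was 5.22% with a window of 2500 bp (22.8% of all regions) and 7.49% with all annotated genes (25.2%). Leaving out 1 library gave 2.85% to 5.12%, against 19.8% of all regions. It stayed below the share of all regions in each alternative run. Alternatives for scaling by chromosome and for the gene-end share of other member sets were chosen after the data were seen. Of 984 alternative log2 ratios of the members named by rule, 968 moved by less than the spread between replicates and 16 by more. Most of these alternatives leave out 1 of the 3 libraries that also set that spread. A small move was therefore nearly built in, and the counts do not show stability. The rule fixes the direction of these ratios.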

Other observations

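Few members lay side by side, and members were 1.42% of all regions of at least 3 CPM. Of regions within 2 kb of a member, 1.43% were members too. The share was 2.45% at 2 to 5 kb, 3.02% at 5 to 10 kb and 1.27% at 50 to 100 kb. These shares were not tested. The nearest other member was a median of 754 kb away, and 18 members had another within 10 kb. The pairs were in Nudt13 (a nudix hydrolase), Pam, Ints10 (an Integrator subunit) and Capn9 (a calpain), across A430033K04Rik and Fam20c (a secretory pathway kinase), and near Cdk5rap2, Chst1, Insig2 and Enpep. In the closest pair, in Nudt13 on chromosome 14, both lay within 1.05 kb. Pairs were named after their values were seen.

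Regions that were not members were also lower close to a member. Within 2 kb of one, 92 of 138 (66.7%) had a Smndc1 shRNA mean below the empty vector mean, with a median log2 ratio of -0.147 with Smndc1 shRNA and 0.0459 with Atrx shRNA. From 50 to 100 kb away it was 49.0%, with medians of 0.00757 and -0.0246, close to the 47.5% of all regions. Neighbouring regions can share reads, and the part of that was not tested.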
